A study of Homo sapiens with 8 samples.

Results

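The 6 genes described here were CHCHD2, TRIM4, CRYZ, ZNF680, CAT and TCERG1L, taken from the 60675 genes in the files. The first 4 were chosen by their levels in these data, because they fell to near zero in late-passage cells. CAT and TCERG1L were listed with them as genes known to vary in DNA methylation among pluripotent lines. RNA was sequenced from H9 human embryonic stem cells (hESCs), an established line also called WA09, that had been kept for increasing numbers of passages in feeder-free culture on Matrigel. P1 hESCs were at passages in the 40s, P2 hESCs in the 100s, P3 hESCs in the 200s and P4 hESCs in the 300s, each with 2 samples and no treatment or engineered allele. A gain of chromosome band 20q11.21, on which none of these genes lies, is known for P3 and P4 hESCs. The P1 and P2 samples are called early below, and the P3 and P4 samples late. The passage number, this gain and any other change fixed in P3 and P4 hESCs cannot be told apart as sources of a difference.

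CHCHD2 encodes a small protein of the mitochondrial intermembrane space that is built around a twin CX9C fold, in which cysteine pairs form disulfide bonds, and that also acts in the nucleus as a transcription factor for a cytochrome c oxidase subunit. TRIM4 encodes a RING-type ubiquitin ligase that ubiquitinates the viral RNA sensor RIG-I, CRYZ a quinone oxidoreductase that uses NADPH, and ZNF680 a zinc finger protein with a KRAB domain, the domain by which such proteins recruit the corepressor TRIM28. CAT encodes catalase, the peroxisomal enzyme that breaks down hydrogen peroxide, and TCERG1L is a little-studied gene. Mammalian promoters are often rich in CpG dinucleotides, the sites at which DNA is methylated, and dense methylation of such a promoter is known to accompany lasting silence of the gene. Pluripotent lines in long culture are known to acquire differences of this kind at particular genes. DNA methylation was not measured in the data used here.

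CHCHD2 (ENSG00000106153) lay on the minus strand at chr7:56101569-56106576 of GRCh38 in GENCODE release 29. TRIM4 (ENSG00000146833) at chr7:99876958-99919600 and ZNF680 (ENSG00000173041) at chr7:64519884-64563106 were on the same strand of the same chromosome, so that 3 of the 6 genes were on chromosome 7. CRYZ (ENSG00000116791) lay on the minus strand at chr1:74705482-74733408, CAT (ENSG00000121691) on the plus strand at chr11:34438925-34472062 and TCERG1L (ENSG00000176769) on the minus strand at chr10:131092391-131311721.

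The stretches just upstream of the annotated exons are shown for the genes with such sequence in RefSeq (GRCh38.p14), to let the CpG sites of the promoters be compared. Each is printed 5′ to 3′ on the strand of its gene, and capitals mark the CpG dinucleotides. They span chr7:56106577-56106726 for CHCHD2, chr7:64563107-64563321 for ZNF680, chr11:34438684-34438924 for CAT and chr10:131311722-131311971 for TCERG1L.
CHCHD2: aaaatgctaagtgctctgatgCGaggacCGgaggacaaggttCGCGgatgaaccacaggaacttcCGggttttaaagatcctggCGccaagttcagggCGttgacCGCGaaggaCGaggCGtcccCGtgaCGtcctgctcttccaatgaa
ZNF680: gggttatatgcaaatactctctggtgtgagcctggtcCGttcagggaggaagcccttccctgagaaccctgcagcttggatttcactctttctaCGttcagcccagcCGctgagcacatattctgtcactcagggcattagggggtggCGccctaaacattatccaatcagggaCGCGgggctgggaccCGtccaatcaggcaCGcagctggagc
CAT: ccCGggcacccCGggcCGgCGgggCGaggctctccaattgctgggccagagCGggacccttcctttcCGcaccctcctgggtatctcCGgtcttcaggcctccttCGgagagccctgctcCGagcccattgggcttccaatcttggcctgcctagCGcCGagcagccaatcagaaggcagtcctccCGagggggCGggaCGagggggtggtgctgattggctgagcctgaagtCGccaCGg
TCERG1L: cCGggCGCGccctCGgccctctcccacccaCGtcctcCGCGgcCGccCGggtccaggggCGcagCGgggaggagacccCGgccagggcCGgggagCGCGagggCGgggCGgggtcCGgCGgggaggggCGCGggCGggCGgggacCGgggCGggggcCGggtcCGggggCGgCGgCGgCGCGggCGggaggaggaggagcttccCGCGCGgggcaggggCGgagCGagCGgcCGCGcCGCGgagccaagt

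The promoters did not share one CpG content. In the window of 300 bases around the RefSeq start site (250 upstream and 50 downstream), CHCHD2 had 26 CpG sites, CRYZ 17, ZNF680 13, CAT 20 and TCERG1L 53, against a median of 21 over 22199 protein-coding promoters. TCERG1L thus had more CpG sites than 99.3% of promoters, whereas ZNF680 had more than 34.7%. The ratio of observed to expected CpG, which allows for base composition, was 0.975 in CHCHD2 and 0.984 in TCERG1L, above the median of 0.737, and 0.701 in CRYZ, 0.577 in CAT and 0.528 in ZNF680, below it. Each window had 57% to 86% G and C bases, against a median of 62.3%. The CRYZ window lay wholly within annotated exons of CRYZ and TYW3 and its sequence is not shown. TRIM4 was not among the promoters used.

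**Figure D1:**
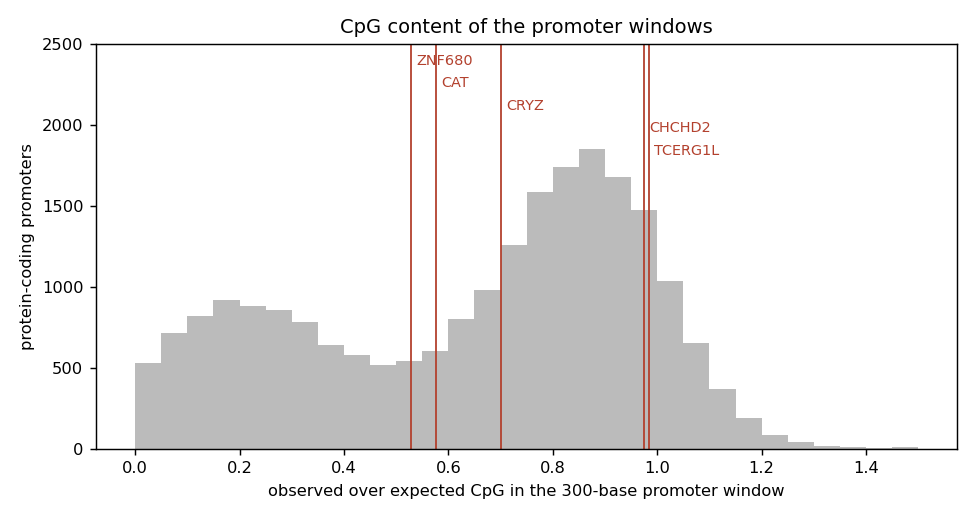
Observed over expected CpG in the promoter window (x axis, a ratio) of 22199 protein-coding genes (grey bars, number of promoters) and of 5 of the 6 genes (red lines). ZNF680, CAT and CRYZ lie left of the median of 0.737, and CHCHD2 and TCERG1L, at 0.975 and 0.984, to the right of the main peak.

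Short promoter motifs were searched on both strands of the same windows, with overlapping matches counted. CCAAT, held by 34.7% of promoters, occurred 1 time in CHCHD2, 2 times in ZNF680 and 5 times in CAT. The ETS core CCGGAAG, held by 12.8%, occurred 2 times in CHCHD2 and 1 time in ZNF680. The GC box GGGCGG, held by 56.3%, occurred 1 time in CAT and 9 times in TCERG1L. The cAMP response element TGACGTCA (2.26% of promoters) and the TATA box TATAAA (9.47%) matched none of the 5 windows. The letters of the ETS core, the GC box and the cAMP response element each contain a CpG site, and some matches lie in the part of a window that is not printed above. No motif of the 5 searched was in every window.

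The depth was 26874899 to 38095600 counts per sample, with 5.89% to 18.5% of counts from mitochondrial genes. TPM is the RSEM estimate of transcripts relative to all transcripts, a level per length, and CPM is the count relative to the library size after TMM scaling. A gene was called when its absolute log2 fold change was above 1 and its FDR, the Benjamini-Hochberg adjusted p of edgeR's quasi-likelihood test, was under 0.01. Of 19499 genes tested, 2.2% were called in late against early samples, and 1.14% were called lower. The defining pluripotency markers were high in all lines, with POU5F1 at 1095 to 2421 TPM. Summed markers of mesendoderm were at most 3.54 TPM and those of neuroectoderm at most 0.5 TPM. The summed fibroblast markers, almost wholly COL1A1, were 92.8 to 150.5 TPM in P1 and P2 hESCs and 51.3 to 64.1 TPM in P3 and P4 hESCs, with DCN, LUM and COL3A1 near 0 throughout, and their part in the results was not tested. The labels do not say whether the 2 samples of a line came from separate cultures, so the p-values measure the spread between these samples, which may be technical. Tests of 4 early against 4 late samples also treat the 2 samples of a line as independent. Each of these groups holds only 2 lines, so such p-values may be too small.

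All 6 genes passed the filter on low counts. Per length, their mean levels in P1 and P2 hESCs ran from CHCHD2 at 248.8 TPM through CRYZ at 19.8, ZNF680 at 5.54, TRIM4 at 4.79 and TCERG1L at 3.49 to CAT at 0.472. They did not behave as 1 group. CHCHD2, TRIM4, CRYZ and ZNF680 were expressed in every P1 and P2 sample and left at most 12 counts in any P3 or P4 sample. CAT was already near 0 in P2 hESCs, and TCERG1L was expressed in all 8 samples, so neither matched the description of genes silenced in late culture. The other 4 matched it, as their choice ensures. In bulk samples such as these, fewer cells that express a gene and less RNA per cell cannot be told apart.

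**Figure D2:**
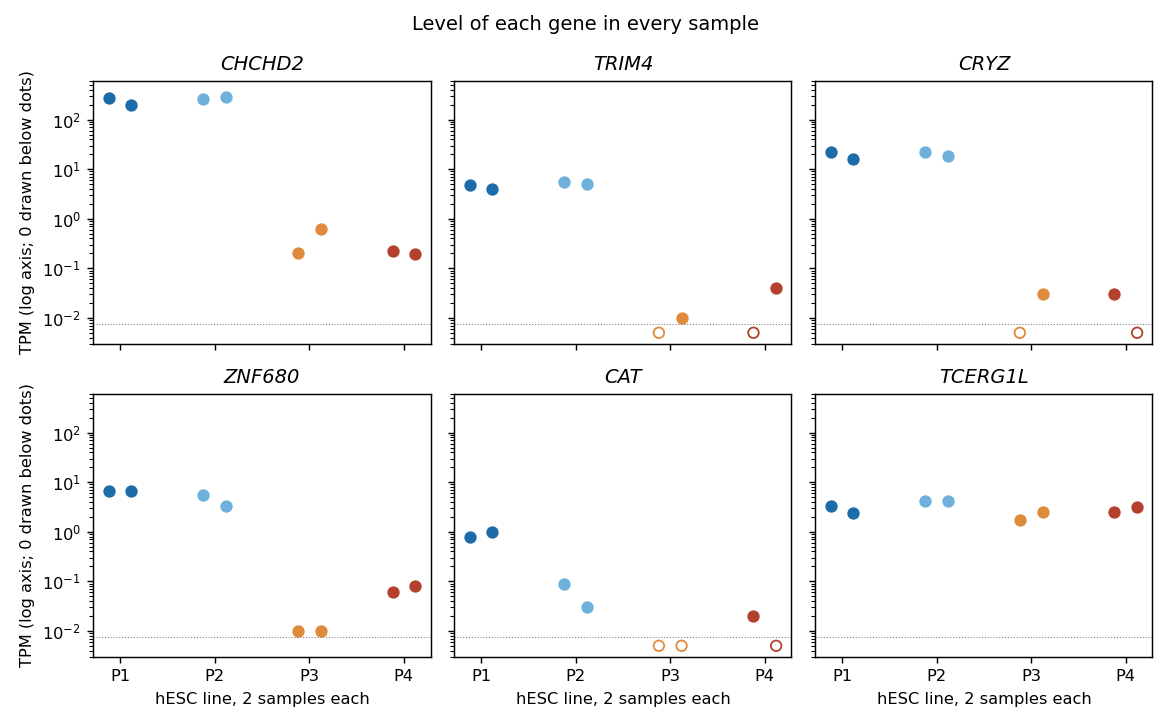
TPM on a log axis of the 6 genes in each of 8 samples, by hESC line (x axis). Filled circles are single samples, and open circles under the dotted line are samples at 0. CHCHD2, TRIM4, CRYZ and ZNF680 drop between P2 and P3, CAT between P1 and P2, and TCERG1L stays between 1.76 and 4.19 TPM.

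CHCHD2, the mitochondrial twin CX9C protein, was the most abundant of the 6 genes. Its level was 267.2 and 193 TPM in the P1 samples, 255.6 and 279.3 TPM in the P2 samples, 0.2 and 0.61 TPM in the P3 samples and 0.22 and 0.19 TPM in the P4 samples. The expected counts behind these levels were 4021 to 5550 in the early samples and 5, 12, 4 and 3 in the late ones. The groups did not overlap, which the choice of the gene ensures. Over the summed counts, scaled to library size, P1 and P2 hESCs had 744 times the CHCHD2 RNA of P3 and P4 hESCs (95% exact interval 499.9 to 1162). These intervals cover counting error only, and the late level was 0.134% of the early one. All 4 genes chosen by this fall were called lower (1.14% of all tested genes were), as their selection fixes, and no test of it is given.

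The order of the CHCHD2 levels among lines was P2, P1, P3 and P4, and its neighbours within the early and late pairs were not shown to differ. Between P2 and P1 hESCs the log2 fold change in edgeR was 0.07 ± 0.20 (SE), with an FDR of 0.95. P3 and P4 hESCs, with 17 and 7 counts, had a ratio of 2.12 with a counting interval of 0.834 to 6.04. Near-identical copies of the gene had few counts in either group. Of 10 processed pseudogenes of CHCHD2 in the files, 7 had no count in any sample, and no pseudogene had more than 5 counts.

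CRYZ, the quinone oxidoreductase, kept the smallest share of its early level. It was at 22.3 and 16.2 TPM in P1, 22.5 and 18.3 TPM in P2, 0 and 0.03 TPM in P3 and 0.03 and 0 TPM in P4 hESCs. The late samples held 0, 1, 1 and 0 counts against 700.3 to 1079 in the early samples. The summed counts, 3648 against 2, gave a ratio of 1607, whose interval of 444.6 to 13280 was wide because it rests on 2 counts. Between P2 and P1 hESCs, the log2 fold change of CRYZ counts was -0.36 ± 0.26 with an FDR of 0.70. The isoform-weighted length of CRYZ transcripts that RSEM gave was 1933 and 1932 bases in P1 and 1650 and 1548 bases in P2 hESCs. The CPM of CRYZ was 28.7 ± 3.1 (SD, n = 2) in P1 and 22.3 ± 3.8 in P2 hESCs, whereas its TPM, which allows for that length, was 19.2 ± 4.3 and 20.4 ± 2.9. The median log2(TPM + 1) difference of all genes in P2 over P1 hESCs was also 0.13, and why CPM and TPM differed for CRYZ was not tested.

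ZNF680, the KRAB zinc finger gene, was at 6.77 and 6.71 TPM in P1 and 5.42 and 3.27 TPM in P2 hESCs. Both P3 samples were at 0.01 TPM, and the P4 samples were at 0.06 and 0.08 TPM. The P3 samples had 1 count each and the P4 samples 1 and 2, so the higher TPM of P4 hESCs came with assigned transcript lengths of 769 and 1339 bases against 3022 bases in P3 hESCs. Summed counts of 1594 early and 5 late gave a ratio of 280.9 (120.1 to 866.3). ZNF680 had a lower level in P2 than in P1 hESCs, at 7.96 ± 2.82 CPM against 14.7 ± 2.3 CPM. That difference, -0.88 ± 0.31 on the log2 scale, had an unadjusted p of 0.0139 and an FDR of 0.48 in edgeR and was not called.

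TRIM4, the ubiquitin ligase of the RIG-I pathway, was at 4.78 and 3.98 TPM in P1 and at 5.39 and 5.02 TPM in P2 hESCs. The late samples were at 0, 0.01, 0 and 0.04 TPM, from 0, 1, 0 and 3 counts. The early samples had 257 to 383 counts each, and the summed ratio was 273.6 (106.6 to 1006). TRIM4 was at 8.30 ± 0.29 CPM in P1 and 8.93 ± 0.55 CPM in P2 hESCs, with a log2 fold change of 0.11 between them and an FDR of 0.95.

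Among all 11913 tested genes with at least 5 CPM in P1 and P2 hESCs, 5 had a late mean CPM under 1% of the early mean. They were CRYZ at 0.061%, CHCHD2 at 0.129%, ZNF680 at 0.356%, TRIM4 at 0.374% and TYW3 at 0.435%, so that TYW3 was the gene just inside the threshold in CPM. In TPM, ZNF680 kept 0.722%, TRIM4 0.261%, CHCHD2 0.123% and CRYZ 0.0757%, so ZNF680 was then the nearest of these 4 to the threshold. Just outside it were ZNF595 at 1.02% and ECHDC3 at 1.15%, and the gene after them, FEZF1-AS1, kept 4.13%. These ranks describe the values by which the genes were chosen.

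**Figure D3:**
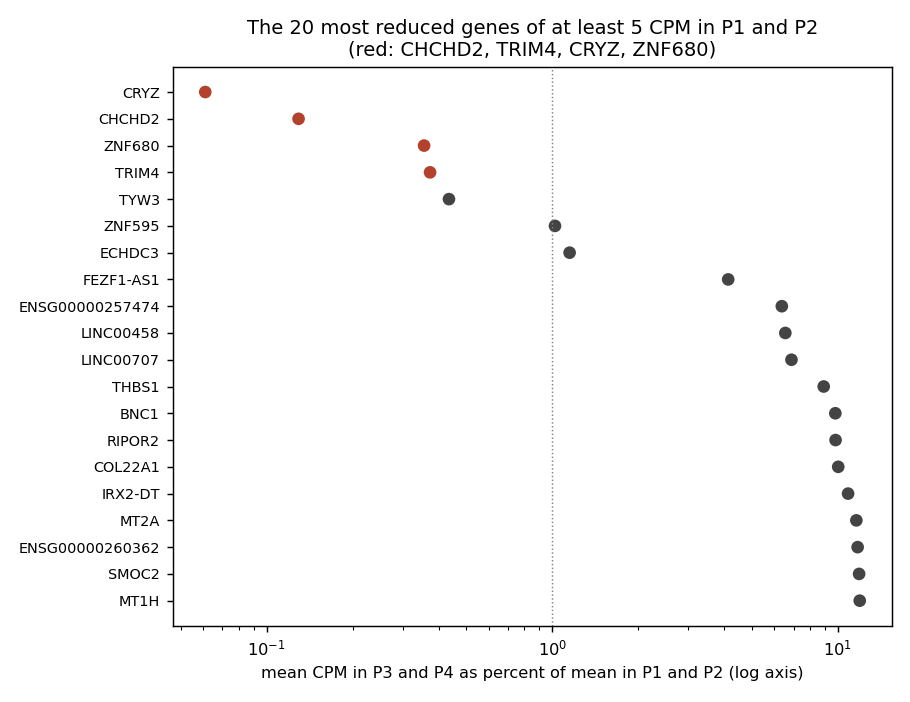
Mean CPM in P3 and P4 hESCs as a percent of the mean in P1 and P2 hESCs (x axis, log scale) for the 20 most reduced tested genes of at least 5 CPM in P1 and P2 hESCs, with the chosen genes in red. CRYZ, CHCHD2, ZNF680, TRIM4 and TYW3 lie left of the dotted line at 1%, and a gap separates ECHDC3 at 1.15% from FEZF1-AS1 at 4.13%.

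CAT, which encodes catalase, was low in every line, and its counts were near 0 from P2 hESCs on. It was at 0.79 and 0.98 TPM in P1, 0.09 and 0.03 TPM in P2, 0 and 0 TPM in P3 and 0.02 and 0 TPM in P4 hESCs. The counts were 43 and 46 in P1, 1 and 2 in P2, 0 and 0 in P3 and 1 and 0 in P4 hESCs. The P1 samples were above all others, and no sample of the other lines had more than 2 counts. CAT passed the filter on low counts through P1 hESCs alone, the line in which it was high. In P2 hESCs the ratio of summed counts, 89 in P1 over 3 in P2, was 34.2 (11.3 to 168.9).

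CAT was listed for its reported methylation, though with earlier results of these data known. As it entered the tested genes only through P1 hESCs, a difference from a group that holds P1 hESCs was favoured by the filter, and the fitted values that follow describe CAT and are no independent evidence of its fall. With all early samples as 1 group, the log2 fold change of CAT in late samples was -5.88 ± 1.52 with an FDR of 0.039, and CAT was not called. With DESeq2 the FDR was 0.0012 and with no filter on low counts 0.0020, and CAT was then called. Over all 16 alternatives its FDR ran from 0.0012 to 0.174, and on the log2(TPM + 1) scale, where low levels count for little, its difference was -0.49. In an exact two-sided permutation test of log2(CPM + 0.1) over the 4 early and 4 late samples, p was 0.0571. The smallest possible p was 0.0286, and 3 of 4 late samples were below every early sample. Single samples were shuffled, without regard to the 2 samples of a line belonging together. CAT was called lower against P1 alone, both in P3 hESCs (FDR 0.0011, edgeR) and in P4 hESCs (FDR 0.0028, edgeR). Against P1 hESCs, 3.93% of tested genes were called in P3 and 2.11% in P4 hESCs.

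Against P2 hESCs, CAT was not called in P3 (FDR 0.21, edgeR) or in P4 hESCs (FDR 0.77, edgeR), where each line had at most 3 counts in all. Between P2 and P1 hESCs the log2 fold change of CAT was -4.97 ± 0.77, with an unadjusted p of 4.189e-05 and an FDR of 0.085 in edgeR. With only these 4 samples in the fit the FDR was 0.0029 and CAT was called. Over the alternatives that kept every P1 and P2 sample, the FDR ran from 1.033e-06 with no filter on low counts to 0.127 with the replicate block. CAT passed the filter only through P1 hESCs, so these values describe it and are no independent evidence of a fall. The order of CAT levels was P1, P2, P4 and P3, and no step among P2, P4 and P3 was called.

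TCERG1L was expressed in all lines, with the CpG-richest promoter of the 5 windows. Its level was 3.27 and 2.36 TPM in P1, 4.19 and 4.15 TPM in P2, 1.76 and 2.52 TPM in P3 and 2.55 and 3.16 TPM in P4 hESCs. The groups overlapped, and 2 of the 4 late samples were below every early sample in CPM. Its log2 fold change in late over early samples was -0.35 ± 0.21 (95% interval -0.80 to 0.11) with an FDR of 0.32. The exact permutation p over the 8 samples was 0.114, with single samples shuffled in the same way. In order of CPM the lines were P2 at 8.02 ± 0.19, P4 at 6.12 ± 0.10, P1 at 5.99 ± 0.68 and P3 at 4.92 ± 0.03 (SD, n = 2). The largest step, P3 against P2 hESCs, was -0.71 ± 0.26 on the log2 scale with an FDR of 0.095, and no pair of lines passed.

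Within the early and the late pair of lines, none of the 6 genes was called. Between P2 and P1 hESCs edgeR called 0% of the 19499 tested genes, 1782 had an unadjusted p under 0.05 and DESeq2 called 40. CAT and ZNF680 were the 2 of the 6 genes with an unadjusted p under 0.05. Between P4 and P3 hESCs edgeR called 0.815% of tested genes, 3739 had an unadjusted p under 0.05 and DESeq2 called 600, but none of the 6 genes had an unadjusted p under 0.05. For CHCHD2, TRIM4, CRYZ, ZNF680 and CAT this comparison rests on at most 17 counts a line, and a modest difference between such near-zero levels was not detectable at this depth. The 95% interval of the log2 fold change was narrowest for CHCHD2 (-2.28 to 0.17) and widest for CAT (-1.71 to 6.68). TCERG1L, with 332 and 360 counts, had a log2 fold change of 0.32 ± 0.26 in P4 over P3 hESCs (95% interval -0.25 to 0.88).

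Of the genes around the 6 start sites, the gene next to CRYZ was called. Within 1 Mb, 112 other genes were tested, of which 1 was called (0.893%, against 2.2% of all tested genes). The median log2 fold change of these neighbours was -0.01, against 0.01 over all tested genes. No neighbour was called among 10 of CHCHD2, 68 of TRIM4, 10 of ZNF680, 11 of CAT and 5 of TCERG1L. SUMF2, a sulfatase modifying factor gene whose start lay 42574 bases from that of CHCHD2, was at 73.7 ± 8.2 CPM early and 65.8 ± 14.1 CPM late (SD, n = 4). Its log2 fold change was -0.16 with an FDR of 0.59 in edgeR. On the far side of CHCHD2 the nearest tested gene, the lincRNA ENSG00000279072, lay 742224 bases away (-1.18, FDR 0.23).

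GJC3, a connexin gene 10020 bases from TRIM4, had a log2 fold change of -0.06, and CYP3A5, a cytochrome P450 gene on its other side, of -0.004. ZNF107, a zinc finger gene 102977 bases from ZNF680, had one of -0.55 with an FDR of 0.19 in edgeR. Beside CAT, ABTB2 had a log2 fold change of -0.51 (FDR 0.15, edgeR) and the pseudogene ENSG00000271369 one of 0.09. On the upstream side of TCERG1L, the phosphatase subunit gene PPP2R2D, 588923 bases away, had a log2 fold change of 0.20. On the downstream side the nearest tested gene was the glutaredoxin gene GLRX3, 1175322 bases away and outside the 1 Mb window, with one of 0.52 (FDR 0.053, edgeR). OR2AE1, an olfactory receptor gene whose exons overlap those of TRIM4 on the same strand, had 1 count in the early samples together and 0 in the late samples, and was not tested.

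**Figure D4:**
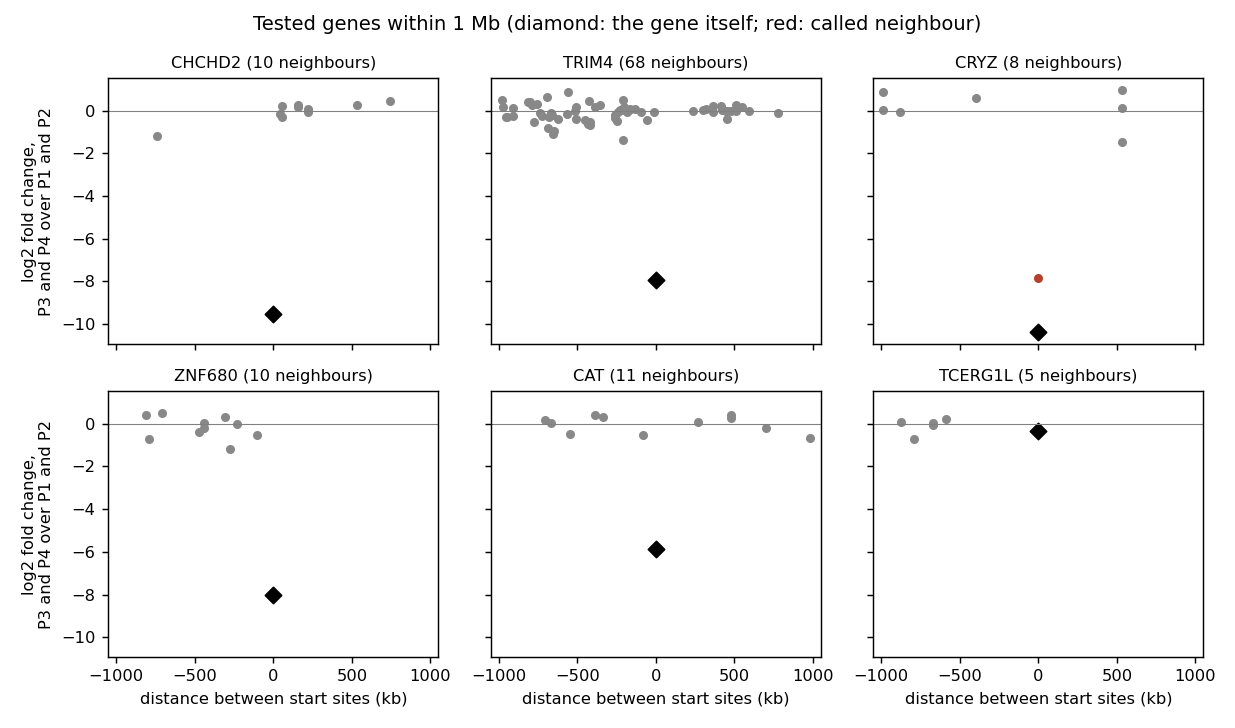
Log2 fold change of P3 and P4 over P1 and P2 hESCs (y axis) for each tested gene within 1 Mb, by the distance between start sites in kb (x axis, positive values downstream of the named gene). Black diamonds are the 6 genes and the red point is TYW3, the 1 called neighbour, which lies beside CRYZ at -7.83, while the other neighbours lie between -1.45 and 0.95.

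TYW3, which encodes an enzyme of wybutosine synthesis in phenylalanine tRNA, starts on the opposite strand 256 bases from the start of CRYZ, and exons of the genes overlap. TYW3 was at 28.4 and 25.9 TPM in P1, 21.6 and 15.0 TPM in P2, 0.1 and 0.24 TPM in P3 and 0.08 and 0.05 TPM in P4 hESCs. Every late sample was far below every early one, but the share of all tested genes separated in this way was not determined. The log2 fold change was -7.83 ± 0.41 with an FDR of 1.873e-06 in edgeR, and the summed counts were 6721 against 26, a ratio of 227.8 (155.3 to 348.9). With 12, 4, 7 and 3 counts in the late samples, TYW3 passed the filter on low counts through P1 and P2 hESCs. It also shares exons with CRYZ, a gene chosen for this fall. These fitted values therefore describe TYW3 and are no independent evidence of its fall. In P2 hESCs TYW3 was at 34.6 ± 6.0 CPM, against 61.0 ± 10.04 CPM in P1 hESCs, a log2 fold change of -0.82 with an FDR of 0.48. The library kit marks strand, but whether the counting used the strand is not given in the sources used here, so reads over the shared exons may have been split between CRYZ and TYW3. LHX8, the nearest tested gene on the other side of CRYZ, had a log2 fold change of 0.58 at 0.38 CPM and an FDR of 0.51.

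Among the tested genes listed for the fold of CHCHD2 or as its known partners and targets, none was called lower. Its paralog CHCHD10 was at 65.9 ± 5.0 TPM early and 77.7 ± 6.1 TPM late (SD, n = 4), with a log2 fold change of 0.39 and an FDR of 0.24 in edgeR. Of 21 genes for twin CX9C proteins of mitochondria, none was called, and their log2 fold changes ran from -0.14 to 0.50 with a median of 0.27. Among 10 tested genes of 11 for CHCHD2 partners and targets, 1 was called higher and none lower, with a median of 0.22. The gene called was BCL2L1, the survival gene in band 20q11.21, at 45.0 ± 10.4 TPM early and 99.7 ± 8.8 TPM late (log2 fold change 1.26, FDR 0.0012, edgeR). COX4I1, the most abundant gene of that list and a subunit of cytochrome c oxidase, was at 539.7 TPM early and 544 TPM late and was not called. COX4I2, the oxygen-responsive form of that subunit that CHCHD2 is known to activate, did not pass the filter, at a mean of 0.182 TPM early and 0.632 TPM late. Its samples overlapped, at 0, 0.22, 0 and 0.51 TPM early and 1.7, 0.41, 0.07 and 0.35 TPM late, and the first P3 sample was the highest.

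Among 11 genes of RIG-I sensing, the pathway in which TRIM4 acts, 2 were called higher and none lower. RIGI, the sensor itself, was at 2.7, 1.83, 2.42 and 1.97 TPM in the early samples and at 4.22, 5.73, 6.68 and 8.22 TPM in the late samples (log2 fold change 1.60 ± 0.19, FDR 6.0e-04, edgeR). IFIH1, which encodes the related sensor MDA5, was at 0.51 to 0.77 TPM early and 2.71 to 5.82 TPM late (2.62 ± 0.25, FDR 1.6e-04, edgeR). The late samples of both sensors were above all early samples, but the share of all tested genes separated in this way was not determined. TRIM25 and RNF135, which encode the other ubiquitin ligases of RIG-I in the list, had log2 fold changes of -0.08 and -0.14 and were not called. IRF3, the transcription factor downstream and the most abundant gene of the list, was at 107.2 TPM early and 97.4 TPM late and was not called.

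Of the listed relatives of CRYZ, none was called lower. Its relative CRYZL1 was at 12.8 ± 2.6 TPM early and 13.9 ± 4.1 TPM late, with a log2 fold change of 0.22 and an FDR of 0.46 in edgeR. Of 12 other quinone and enone reductase genes, 1 was called higher and none lower, with a median of 0.15. NQO1, the NAD(P)H quinone dehydrogenase of the NRF2 response, was at 21.1 to 37.4 TPM early and 73.7 to 96.4 TPM late (1.52 ± 0.18, FDR 7.6e-04, edgeR). ADH5, the most abundant of the list, was at 216.6 TPM early and 270.5 TPM late and was not called.

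Of 26 genes for peroxide and superoxide handling, the function of catalase, 1 was called higher and 1 lower, with a median of 0.17. TXNRD2, the mitochondrial thioredoxin reductase, was at 22.3, 20.4, 28.6 and 30.3 TPM in the early samples and 1.08, 3.31, 2.94 and 4.77 TPM in the late samples. Its log2 fold change was -3.04 ± 0.32 with an FDR of 3.2e-04 in edgeR, and both its P2 samples were above its P1 samples. GPX3, the secreted glutathione peroxidase, was higher at 40.6 ± 7.4 TPM late against 22.6 ± 3.4 TPM early (1.01 ± 0.19, FDR 0.0094, edgeR). None of 18 peroxisome genes was called, and their median was 0.28.

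For ZNF680, none of 7 genes of the KRAB corepressor complex was called, and TRIM28, its scaffold, was at 762 TPM early and 790.5 TPM late. Of 44 other genes on chromosome 7 with a ZNF symbol, a list that holds antisense RNAs and pseudogenes and leaves out zinc finger genes of other names, 28 were tested and 1, ZNF783, was called lower, at 8.02 ± 0.96 TPM early and 3.31 ± 0.85 TPM late (-1.03 ± 0.18, FDR 0.0071, edgeR). The median of the 28 was 0.05. Of 12 other genes reported to vary in methylation among pluripotent lines, 10 were found in the files and 9 were tested, and none was called. Their median was -0.47, with the lowest value in PTPRT, a receptor phosphatase gene, at 0.73 ± 0.15 TPM early and 0.075 ± 0.093 TPM late (-2.74 ± 0.85, FDR 0.073, edgeR). CSRP1, the most abundant of them, was at 27.1 TPM early and 16.4 TPM late. The share of all tested genes called in this comparison, 2.2%, is the background for each of these counts.

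**Figure D5:**
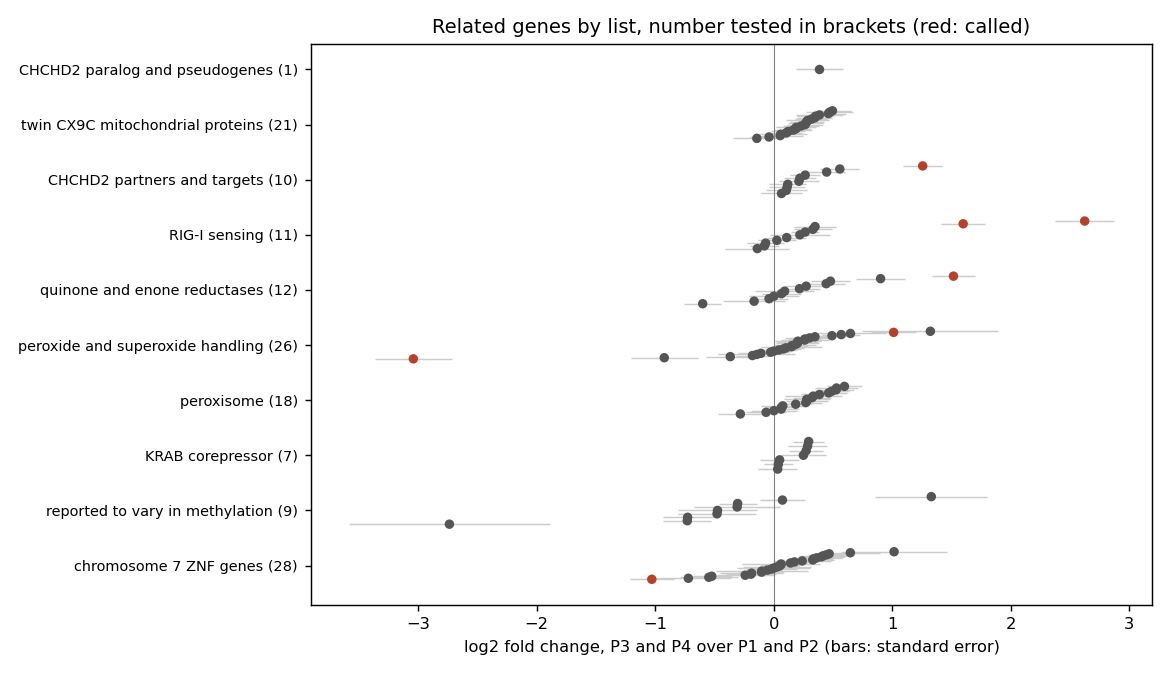
Log2 fold change of P3 and P4 over P1 and P2 hESCs (x axis) with its standard error (bars) for the tested genes of each related list (rows, 1 point per gene, red where called). TXNRD2 at -3.04 and ZNF783 at -1.03 are the 2 genes called lower, and BCL2L1, RIGI, IFIH1, NQO1 and GPX3 are the 5 called higher.

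Across the 8 samples, the log2 CPM of CHCHD2, TRIM4, CRYZ and ZNF680 correlated with each other with Pearson r of 0.986 to 0.997. These values describe 2 groups of samples set apart by the choice of the genes and carry no test. Among 15302 other tested genes with a mean of at least 1 CPM, the genes whose log2 CPM was most like that of CHCHD2 were WDPCP, FHOD3 and GNAL (r 0.9936, 0.9931 and 0.9926). NAP1L5 and HPDL were the most like TRIM4 (0.9960 and 0.9929) and the most like CRYZ (0.9911 and 0.9905), followed by GNAL for both. CACNA1E, TYW3 and NAP1L5 were the most like ZNF680 (0.9899, 0.9898 and 0.9884). NAP1L5, an imprinted gene, was at 1.95 to 3.30 CPM in the early samples and at 0, 0, 0 and 0.034 CPM in the late samples.

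The genes most like CAT differed between P1 hESCs and the other lines. HTR2C, a serotonin receptor gene, had an r of 0.9636, and was at 14.9 and 19.0 CPM in P1, 6.70 and 5.6 CPM in P2, 4.30 and 4.52 CPM in P3 and 5.49 and 6.26 CPM in P4 hESCs. PWAR1 and DUOX2 followed with r of 0.9500 and 0.9468. The genes most like TCERG1L were PARVB (0.9934), SH2B3 (0.9778) and DUSP5 (0.9716). PARVB, which encodes a focal adhesion protein, was highest in P2 hESCs, at 15.8 and 16.9 CPM, and lowest in P3 hESCs, at 9.20 and 8.90 CPM, the order that TCERG1L also had.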

How the data were processed

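RNA of 4 H9 hESC lines (P1 to P4) was measured in 2 samples per line. Per the labels, the authors made strand-specific libraries from mRNA. The submitters' processing notes name FastQC, Trim Galore, STAR 2.7.3a and RSEM 1.3.3, with builds GRCh38 and hg38, and the annotation release is not given in the sources used here. The authors deposited an expected count, not normalized, and a TPM per gene and sample, both estimated by RSEM, with transcript lengths. Samples were not pooled.

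Expected counts were rounded and analysed with edgeR 4.0.16 in R 4.3.3 (TMM, filterByExpr with the lines as groups, quasi-likelihood test, Benjamini-Hochberg adjustment over 19499 genes). Late (P3, P4) and early (P1, P2) samples were compared as 2 groups of 4, and single lines in a 4-group model. Thresholds follow the study (absolute log2 fold change above 1, FDR under 0.01). DESeq2 1.42.0, limma 3.58.1 on log2(TPM + 1) and log2(TPM + 0.1), and further alternatives were tried. The fits were also run on simulated data, with the same spread set for every gene and no gene made to fall to near zero, so that check does not cover such falls. Exact intervals for ratios of summed counts cover counting error only, at a depth of 26874899 to 38095600 counts. Positions were from GENCODE 29, symbols matched for 56558 identifiers, and promoters from RefSeq, where 5 of 6 genes matched. Python 3.11.15, pandas 2.3.3, scipy 1.17.1 and matplotlib 3.10.9 were used.

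The 6 genes and the gene lists were chosen with earlier results of these data known, and 1 list is not reported here. Genes named besides them were the nearest tested gene on each side, exon-overlapping genes, up to 4 called genes per list, the most expressed gene of short lists, and the 3 genes of highest Pearson r with each. CHCHD10, CRYZL1, COX4I2, TRIM25, RNF135, PTPRT, ZNF595, ECHDC3, FEZF1-AS1 and FJX1 were named outside this rule, after their values were seen.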

Additional observations from a re-analysis of the deposited data

Results flagged for a closer look

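In the 4 samples of P1 and P2 hESCs, the pseudogene ENSG00000271369, the nearest tested gene downstream of CAT, had 1 sample far from the others. It was at 2.44 and 1.54 CPM in P1 and at 2.44 and 2.55 CPM in P2 hESCs. On the log2(CPM + 0.1) scale, the gap between the second P1 sample, the lowest, and the next sample was 0.907 of the range of the 4 samples. Among 29 sets of 4 samples checked in this way, 1 stood out, where chance gives 1.45.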

How the results depend on the processing

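TCERG1L in P3 and P4 hESCs and TYW3 kept their direction and their side of the threshold under all 16 alternatives run for each. For CAT in P3 and P4 hESCs, DESeq2 gave a log2 fold change of -6.15 and no filter on low counts -5.85, and both called it. Its value ran from -7.56 to -5.23 as each sample was left out, and was never called. The number of the 6 genes called in P2 against P1 hESCs rose from 0 to 1, CAT, with no filter on low counts and with only the 4 samples compared, and the cause was not tested. CHCHD2 in P2 against P1 hESCs changed sign when a sample was left out, with a range of -0.042 to 0.215 (-0.042 without P1 replicate 2, -0.026 without P2 replicate 2). CRYZ in P2 against P1 hESCs was 0.088 on log2(TPM + 1) and 0.093 on log2(TPM + 0.1), scales on which the median of all genes lay at 0.13 and 0.19, so it stayed below that median. In P3 and P4 against P1 and P2 hESCs that median was -0.14 on log2(TPM + 0.1). In TPM, ZNF680 kept 0.722% of its early level. Within 2 Mb, 2 of 198 neighbours were called, where 2.2% of all tested genes were. The second was FJX1 (-1.84) near CAT. With the replicate number as a block, CAT had -5.88 (FDR 0.058, edgeR) and TCERG1L -0.35 (FDR 0.36, edgeR), and no call changed. Replicate differences of the 6 pairs of lines correlated with r of -0.0901 to 0.138 across genes, highest between P3 and P4 hESCs. Such values cannot show whether samples of the same number share a batch. With 0 to 12 counts per late sample in all of the genes but TCERG1L, depth limits any comparison among late samples.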
